A study of Homo sapiens with 80 samples.

Results

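The zinc finger genes of human chromosome 19 were followed in Jurkat T cells that had been exposed to 9 g or to 300 g, or heated. A gene was taken when the first chromosome entry of its row was 19, its symbol was ZNF followed by a number and at most 1 letter, and its mean raw count over the 80 libraries was 20 or more. This gave 181 genes out of 263 chromosome 19 genes with such a symbol, 12 of them without a single count, and out of 60663 genes in all. The members were thus chosen by their mean count, which is given here as a description only. Just inside the cutoff lay ZNF709 with a mean of 20.4 counts and ZNF329 with 22.2, and just outside lay ZNF283 with 14.4 and ZNF222 with 11.9. The 181 members all passed the filter on low counts in every comparison. They were set beside the 866 other genes of chromosome 19 with the same count cutoff and, in places, beside 212 ZNF genes of other chromosomes.

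Jurkat E6-1 is a clone of a human T cell leukemia line, so all libraries describe 1 clone in culture. In the first experiment cells were exposed to 9 g in a pipette centrifuge, with 6 libraries for each duration. The short exposures lasted 20 s and 75 s (hypg20s and hypg75s), and the longer ones 3, 5, 7, 9, 15 and 60 min (hypg3, hypg5, hypg7, hypg9, hypg15 and hypg60). The controls stayed at 1 g for 15 min (Ctrl, for all groups up to hypg15) or 60 min (Ctrl60, for hypg60), again with 6 libraries each. In the second experiment a tabletop centrifuge held cells for 5 min at 300 g, and they were fixed 1 min (wait1min), 4 min (wait4min) or 15 min (wait15min) after the stop. Other cells were heated to 42 °C (heat), and both were compared with cells that were not centrifuged (Ctrl300), with 4 libraries in each group. The file names attached to the wait1min and wait4min libraries call them instant and 1min, and the groups here follow the treatment labels. Those of Ctrl60 carry the words plus HEPES, a buffer that the names of hypg60 do not mention, so that an effect of the buffer cannot be told apart from that of 60 min at 9 g. Libraries 69 to 80 hold the hypg3 and hypg15 groups and no control, and a difference of that run of numbers from libraries 1 to 48 cannot be told apart from those 2 exposure times. Library 75 of hypg15 was left out, which left 79 libraries and 5 in hypg15. The labels do not say that libraries of a group came from separate cultures, and the p-values then measure only the spread between these libraries, which may be technical.

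Most human zinc finger genes of this kind encode proteins with a row of C2H2 fingers, each finger reading a few bases of DNA, behind a KRAB box. The KRAB box binds the corepressor TRIM28, which brings the histone methyltransferase SETDB1, HP1 proteins and deacetylases to the bound site, and many of these proteins silence transposable elements. The genes multiplied by tandem duplication and stand in long clusters on chromosome 19, and many are transcribed at a low level.

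Of the 181 members, 149 held a KRAB box in at least 1 annotated coding transcript, 28 did not, and 4 were pseudogenes without a coding transcript (ZNF887P, ZNF56P, ZNF788P and ZNF321P). The median number of fingers was 12, with 31 in ZNF91, the longest array among the members. The GC content of the transcripts had a median of 44.7% over the members, with 43.9% for those with and 62.3% for those without a KRAB box, against 60.0% for the other chromosome 19 genes. Per length, the median level in Ctrl was 1.26 CPM (counts scaled to the library total by TMM) per kb for the members and 7.69 for the other chromosome 19 genes. The highest levels per length in Ctrl were those of ZNF428 (49.4 CPM per kb), ZNF581 (35.9), ZNF317 (22.1), ZNF787 (17.4) and ZNF574 (13.5). Of these 5 genes only ZNF317 holds a KRAB box. Genes of this family resemble each other in sequence, and 74 members overlap another gene on the same strand, so that their counts are uncertain where a read matched several genes.

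The promoters of the 2 members at the ends of the 300 g response, the KRAB gene with the largest log2 fold change and the gene without a KRAB box with the lowest, are shown because they differ in CpG content as the transcripts differ in GC content. They were taken from RefSeq (GRCh38.p14), run from 250 bases before to 50 bases after the start used there, and have the bases of each CpG in capitals. The promoter of ZNF91 lies on the minus strand at chr19:23395422-23395721 and holds 11 CpGs, that of ZNF581 on the plus strand at chr19:55643399-55643698 and holds 23. The counted ZNF581 gene spans chr19:55635459-55645623, so that its window lies inside this span and not at its start.
ZNF91: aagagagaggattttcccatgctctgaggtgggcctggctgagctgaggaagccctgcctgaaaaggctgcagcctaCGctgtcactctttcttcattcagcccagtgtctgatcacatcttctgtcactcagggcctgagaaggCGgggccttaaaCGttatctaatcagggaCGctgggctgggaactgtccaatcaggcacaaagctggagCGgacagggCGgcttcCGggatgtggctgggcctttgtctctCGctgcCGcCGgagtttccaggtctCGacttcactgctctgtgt
ZNF581: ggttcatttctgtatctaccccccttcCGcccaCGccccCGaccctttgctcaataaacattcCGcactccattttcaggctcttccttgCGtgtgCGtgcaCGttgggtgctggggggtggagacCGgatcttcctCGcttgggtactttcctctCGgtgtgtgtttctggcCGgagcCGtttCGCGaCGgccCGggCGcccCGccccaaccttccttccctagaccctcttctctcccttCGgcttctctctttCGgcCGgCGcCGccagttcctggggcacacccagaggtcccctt

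A promoter was found for 163 members. Their median CpG number was 21 in 300 bases, with 20 for the 136 with and 24 for the 27 without a KRAB box, against 27 for 635 other chromosome 19 genes and 14 for all 35116 promoters of the table. The letters CCGGAA, the core of sites for ETS factors, stood on either strand in 91 member promoters (55.8%), in 48.8% of those of ZNF genes on other chromosomes, in 28.3% of those of the other chromosome 19 genes and in 17.2% of all promoters. CCAAT stood on either strand in 54.6% of member promoters, 42.4% of those of ZNF genes elsewhere, 40.5% of those of other chromosome 19 genes and 34.6% of all. TATAAA stood in 2.45%, 3.53%, 5.67% and 11.5% of the same sets. Matches of CCGGAA and CCAAT on opposite strands can share a base. Both CCGGAA and CCAAT are present in the ZNF91 promoter and absent from that of ZNF581. A match of letters is a description of the window and not a binding site.

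Library totals ran from 17205655 to 41893490 counts, the lowest being library 75. The members took 0.216 to 0.299% of the counts in the 9 g and control libraries other than library 75 and 0.259 to 0.279% in heat and Ctrl300, but 0.447 to 0.478% after 300 g. The T cell and Jurkat markers CD3D, CD3E, CD3G, CD247, CD2, CD28, LCK, ZAP70, LAT, TAL1, PTCRA and CD1E were all detected in every library, with summed levels of 4038 to 4181 CPM in Ctrl300 and 2517 to 2751 CPM in wait1min. Of 10 markers of other cell types, 8 had a median under 1 CPM, the exceptions being CD79A at 61.4 and COL1A1 at 6.40 CPM. The sum of these 10 moved as well, from 60.2 to 61.7 CPM in Ctrl300 down to 28.5 to 31.3 CPM in wait1min, and the part of these shifts in the results below was not tested. In bulk libraries fewer cells of a type and less RNA per cell cannot be told apart.

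At 300 g most members rose. In wait1min, 125 of 181 members rose and 39 fell, against 41.4% of all 17155 genes tested that were called higher, 40.1% called lower and 81.5% called in all. Among the other chromosome 19 genes the balance was the opposite, with 71 of 866 called higher and 655 lower. The median log2 fold change was 0.73 for the members, −0.69 for the other chromosome 19 genes and 0.01 for all genes tested. All calls are from edgeR's quasi-likelihood test at a Benjamini-Hochberg adjusted p under 0.05 over all genes tested. Of the risers, 80 rose at least 2-fold and 22 at least 4-fold, and of those that fell 4 fell at least 2-fold. The shares of all genes at these cutoffs were not counted here. For all genes, the paper likewise reports more rises than falls of at least 2-fold after 300 g.

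**Figure D1:**
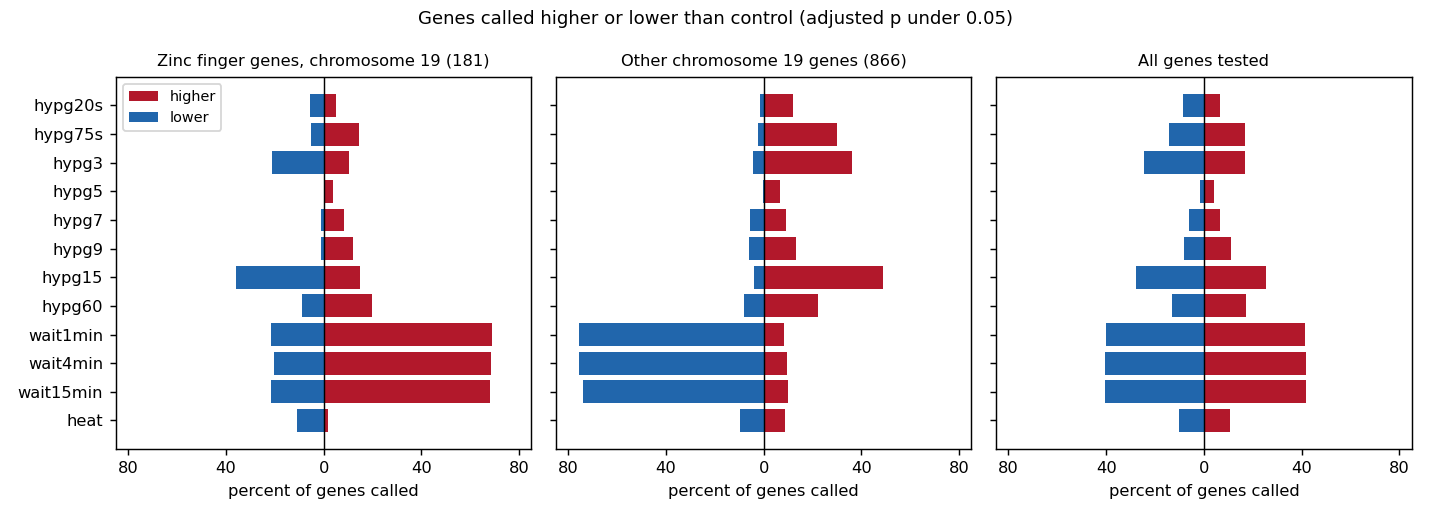
Percent of genes called higher (right, red) and lower (left, blue) than their own control in each of 12 comparisons, for the 181 zinc finger genes, the 866 other chromosome 19 genes and all genes tested. After 300 g the red bars of the zinc finger genes reach 68.0 to 69.1%, whereas the blue bars of the other chromosome 19 genes reach 73.8 to 75.6%.

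Members with a KRAB box rose in 115 of 149 cases and fell in 20, with a median log2 fold change of 0.99, whereas members without one rose in 7 of 28 cases and fell in 19, with a median of −0.68. The 7 risers without a KRAB box were ZNF121, ZNF507, ZNF146, ZNF260, ZNF345, ZNF180 and ZNF134, named here after their values were seen, and of these ZNF134 alone had a transcript GC content above 45%. Of the 85 KRAB genes among the ZNF genes of other chromosomes 60 were called higher and 21 lower, with a median of 1.19, and of the 122 without a KRAB box 58 were called higher and 56 lower, with a median of −0.02. The difference between members with and without a KRAB box was not tested.

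**Figure D2:**
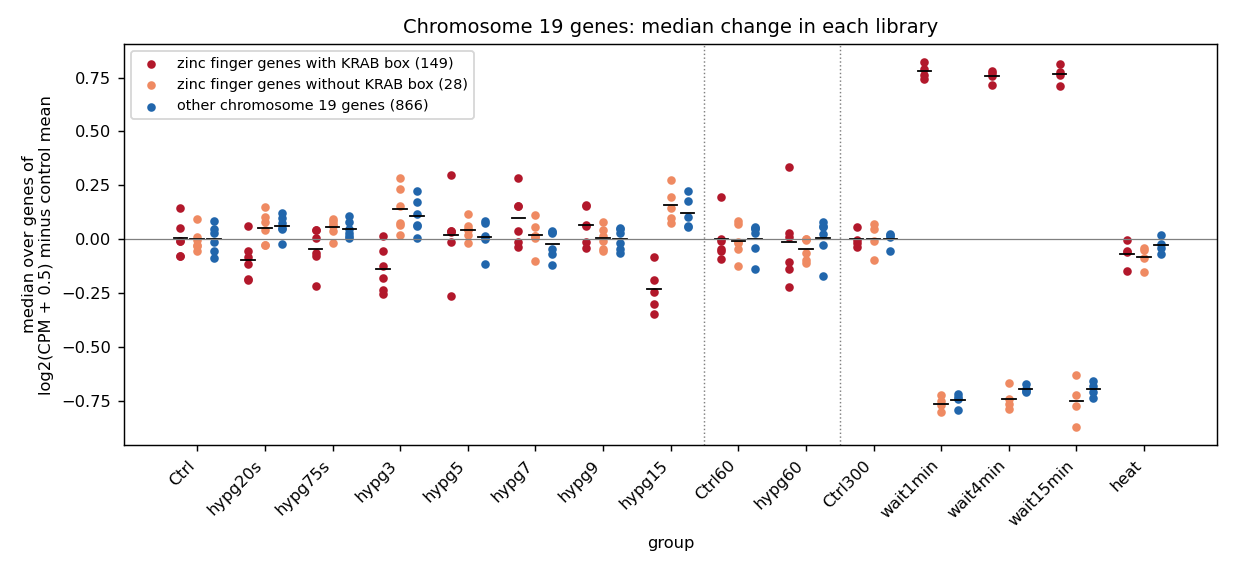
Median over genes of log2(CPM + 0.5) minus the mean of the own control group, 1 point per library, for zinc finger genes with and without a KRAB box and for other chromosome 19 genes, with black bars for group means. All 12 libraries after 300 g have KRAB medians above 0.70 and medians below −0.60 in the other 2 sets.

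Scaled over all 79 libraries, the per-library median of the members was 0.59 ± 0.04 (SD, n = 4) in wait1min, 0.58 ± 0.01 (SD, n = 4) in wait4min and 0.59 ± 0.01 (SD, n = 4) in wait15min above Ctrl300 on the log2(CPM + 0.5) scale. That of the other chromosome 19 genes was −0.75 ± 0.03 in wait1min. On this scale the median of all genes with a mean count of 20 or more moved by −0.17, so these values are not on the scale of the fitted ones. With total counts as the only scaling the median of all genes tested moved by 0.25 in wait1min, that of the members was 0.97 and that of the other chromosome 19 genes −0.45, so that both kept their direction relative to it.

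ZNF91, a KRAB protein that represses SVA retrotransposons, had 5.36, 6.08, 6.21 and 7.39 CPM in the Ctrl300 libraries and 41.7, 43.9, 44.0 and 44.7 CPM in wait1min. The groups lay far apart, and the log2 fold change of 2.92 ± 0.07 (SE) was the highest of all members (edgeR adjusted p = 9.52e-16). It was 2.81 in both wait4min and wait15min. ZNF480, a KRAB gene, rose from 6.24, 6.42, 7.57 and 7.69 CPM to 43.5, 44.7, 46.7 and 50.4 CPM in wait1min, by 2.83 ± 0.07 (edgeR adjusted p = 8.47e-16). ZNF146, whose product is made almost only of fingers and has no KRAB box, had 17.3, 17.3, 17.8 and 22.4 CPM in Ctrl300 and 102, 104, 105 and 121 CPM in wait1min. Its log2 fold change was 2.64 ± 0.07 (edgeR adjusted p = 2.76e-15), and no treated library came near the control range.

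At the other end, ZNF581 had 40.8, 43.0, 44.0 and 47.0 CPM in Ctrl300 and 19.0, 19.3, 19.4 and 19.4 CPM in wait1min, and fell by 1.08 ± 0.05 on the log2 scale (edgeR adjusted p = 1.41e-12). ZNF837 had 13.0, 14.7, 15.3 and 15.8 CPM in Ctrl300 against 6.22, 6.48, 6.77 and 6.89 CPM in wait1min, a log2 fold change of −1.05 ± 0.07. In wait15min ZNF787 had 28.8, 31.0, 32.2 and 32.4 CPM against 57.6, 67.3, 68.4 and 71.0 CPM, a log2 fold change of −0.98 ± 0.06. None of the 3 genes holds a KRAB box, and lack of overlap between the groups was a condition for naming them as the largest falls. In wait1min 117 of 181 members lay wholly above and 42 wholly below Ctrl300, and 56 and 666 of the 866 other chromosome 19 genes. Among the other members of highest level per length, ZNF428 had a log2 fold change of −1.01, ZNF574 of −0.98 and the KRAB gene ZNF317 of −0.50 in wait1min, and all 3 fell.

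**Figure D3:**
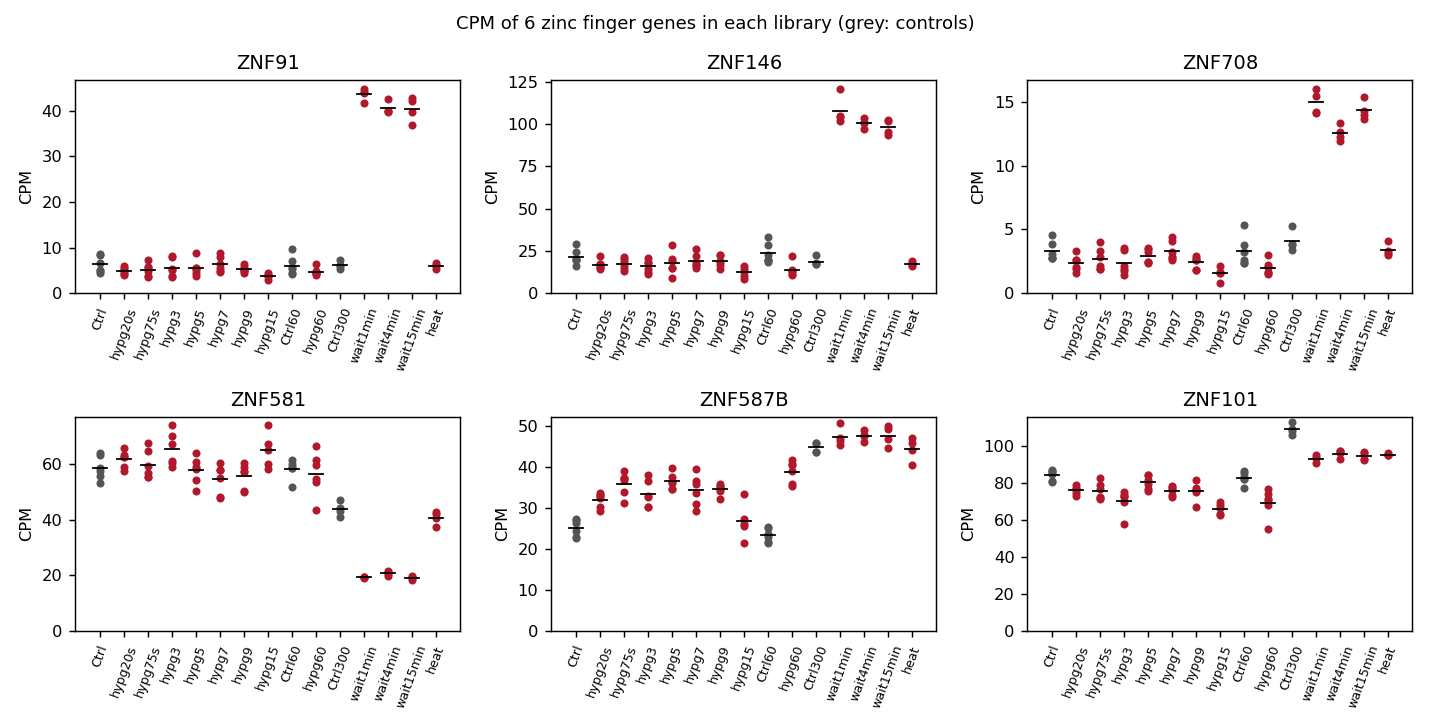
CPM of ZNF91, ZNF146, ZNF708, ZNF581, ZNF587B and ZNF101 in each library (1 point per library, bar at the group mean, controls in grey, axes from 0). ZNF91, ZNF146 and ZNF708 stand several times above Ctrl300 in all 12 libraries after 300 g, ZNF581 stands below it, and ZNF587B is above its control in most 9 g groups.

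At the longer waiting times the counts were 124 higher and 37 lower in wait4min, where 41.7% and 40.6% of all genes tested were called (82.2% in all), and 123 higher and 39 lower in wait15min, where 41.8% and 40.5% were (82.3% in all). Across the 3 waiting times, which share Ctrl300, 122 members rose in all, 37 fell in all, none had opposite calls, and 16 were called in none. The same counts were not made over all genes tested, most of which were called at each time. Between wait15min and wait1min directly edgeR called 0 of 181 members, while 0.149% of all 17446 genes tested were called, 0.0115% of them higher and 0.138% lower in wait15min. At an unadjusted p under 0.05 there were 16 members in that comparison, and DESeq2 called 0.

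Across the 181 members, the response to 300 g fell with GC content, with Spearman's rho of −0.86 between log2 fold change and transcript GC content in wait1min. Across the 149 members with a KRAB box rho was −0.81. These correlations are over genes of the same libraries, which are not independent replicates. Of 19 members under 40% GC all rose, with a median of 2.04, and of 78 members from 40 to 45% 76 rose and none fell, with a median of 1.32. From 45 to 50%, 29 of 55 rose and 12 fell, and of 19 members at 60% or more all fell, with a median of −0.84. In the same bands all genes with a mean count of 20 or more had medians of 1.76, 0.81, −0.03 and −0.68, and the 18 other chromosome 19 genes from 40 to 45% had a median of 0.84.

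After a lowess correction of each library for GC content, 87 members were called higher and 56 lower in wait1min, where 30.8% and 43.5% of all genes tested were called with the same correction, and the median was 0.20 for the members, −0.27 for the other chromosome 19 genes and −0.11 for all genes tested. Of the 125 members called higher before, 86 were still called higher and 25 turned sign, 12 of which were then called lower. The KRAB members kept a median of 0.28 and those without a KRAB box one of −0.28. Relative to all genes the direction of both sets was thus kept, at a smaller size.

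**Figure D4:**
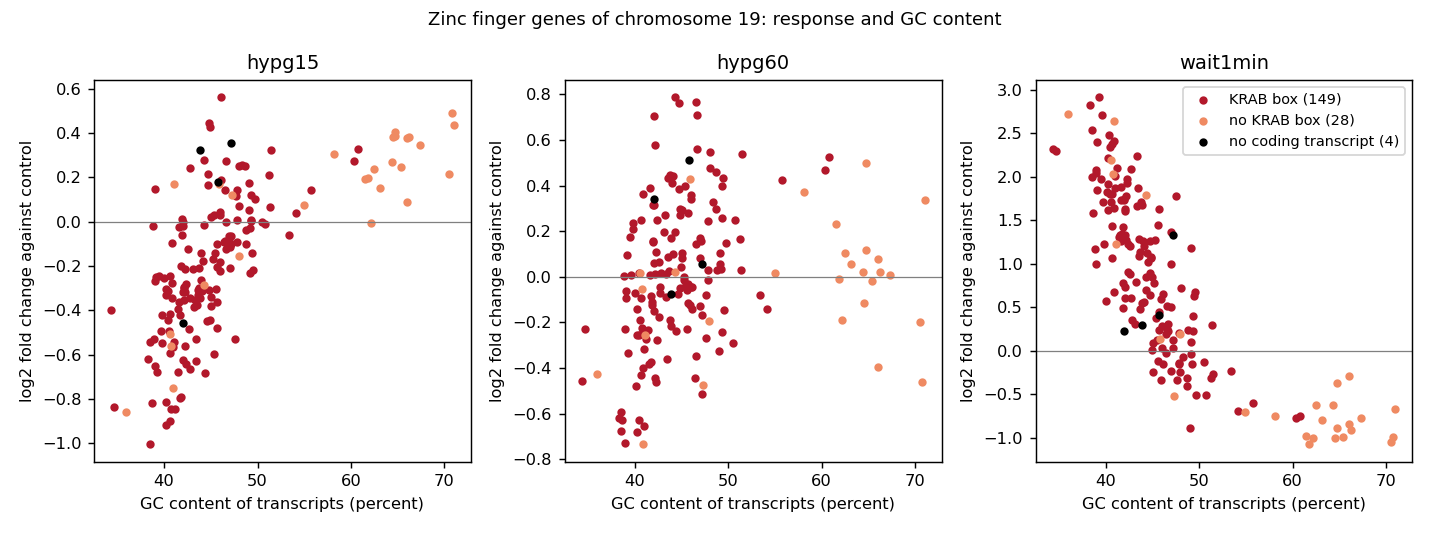
Log2 fold change of each of the 181 members (vertical) against the GC content of its transcripts in percent (horizontal) in hypg15, hypg60 and wait1min, coloured by KRAB box. The points rise from left to right in hypg15 (rho 0.73) and fall in wait1min (rho −0.86), with a looser spread in hypg60 (rho 0.33).

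At 9 g the balance of higher and lower members differed from time to time and depended on the correction for GC content. In hypg20s 9 members rose and 10 fell (6.66% and 8.58% of all genes tested were called higher and lower, 15.2% in all), while DESeq2 called 13 higher and 23 lower. In hypg75s 26 rose and 9 fell (16.8% and 14.4%, 31.3% in all), and in hypg3 19 rose and 38 fell (16.9% and 24.4%, 41.3% in all). The excess of falls at hypg3 was smaller with RLE size factors (26 higher and 29 lower), with DESeq2 (26 and 34) and with all groups in 1 model (23 and 27), was kept without the filter (14 and 36) and turned with total counts (24 and 23). From 5 to 9 min calls were mostly higher, with 7 higher and 0 lower in hypg5 (4.33% and 1.69%, 6.02% in all), 15 and 2 in hypg7 (6.64% and 6.19%, 12.8% in all) and 22 and 2 in hypg9 (11.3% and 8.34%, 19.6% in all). In hypg5 28 members had an unadjusted p under 0.05 and DESeq2 called 9 higher and 1 lower. In hypg15 27 rose and 65 fell (25.4% and 27.9%, 53.4% in all), and in hypg60 36 rose and 16 fell (17.1% and 13.0%, 30.1% in all). The balance at hypg60 rests on library 44, where the median difference of the members from the Ctrl60 mean was 0.30 on the log2(CPM + 0.5) scale, against −0.21 to 0.03 in the other 5 libraries. Without library 44, a setting chosen after seeing the data, there were 34 higher and 37 lower, where 21.2% and 22.2% of all genes tested were called, and the median of the members went from 0.01 to −0.07. Without library 9 of Ctrl60, which also stood above its group, there were 41 higher and 12 lower (19.9% and 9.63% of all genes). With the GC correction more members were called higher than lower at all 8 times. The counts were 14 higher and 5 lower in hypg20s (5.47% and 4.20% of all genes tested with the same correction), 30 and 9 in hypg75s (9.79% and 14.0%), 25 and 6 in hypg3 (9.13% and 15.1%), and 18 and 3 in hypg5 (4.96% and 8.20%). They were 30 and 6 in hypg7 (7.36% and 14.7%), 42 and 12 in hypg9 (11.0% and 19.8%), 30 and 18 in hypg15 (15.7% and 21.8%), and 54 and 29 in hypg60 (17.0% and 26.3%). The median of the members minus that of the other chromosome 19 genes was then above 0 at all 8 times, from 0.024 in hypg20s to 0.17 in hypg9. Up to hypg15 these comparisons share Ctrl, and a control library that stands apart would move them together.

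The other chromosome 19 genes ran the other way at the times when members fell. At hypg15 424 of them were higher and 33 lower, with a median log2 fold change of 0.18 against −0.17 for the members and 0.02 for all genes tested. At hypg3 the counts were 311 and 39, with medians of 0.11 for these genes and −0.14 for the members. At hypg7 79 were higher and 47 lower, with medians of −0.01 for these genes and 0.09 for the members. Only in hypg15 did all libraries have a lower median for the members than for the other chromosome 19 genes, by 0.10 to 0.48 on the log2(CPM + 0.5) scale.

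The counts at hypg3 and hypg15 are given here by KRAB box, which 149 of the 181 members hold, and the difference between the sets was not tested. At hypg15 59 of 149 KRAB members fell and 11 rose, with a median of −0.22, while 15 of 28 members without a KRAB box rose and 5 fell, with a median of 0.20. At hypg3 the counts were 36 lower and 7 higher for KRAB members and 2 lower and 12 higher for the others. These falls moved with GC content, with rho of 0.73 at hypg15 and 0.65 at hypg3 over the 181 members, and after the GC correction the member medians turned from −0.17 to 0.02 at hypg15, from −0.14 to 0.04 at hypg3 and from −0.09 to 0.01 at hypg20s. At hypg15 the medians of KRAB members (0.02), of members without a KRAB box (−0.03) and of the other chromosome 19 genes (−0.06) all turned sign with it. After it 14 of the 65 members that fell at hypg15 were still called lower, and 4 of the 38 at hypg3. By contrast, all 15 and all 22 members called higher in hypg7 and hypg9 were still called higher after it, as were 34 of 36 in hypg60.

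ZNF708, a KRAB gene, had the lowest log2 fold change at hypg15, with 2.74, 2.94 and 4.56 CPM (lowest, median and highest of 6) in Ctrl and 0.830, 1.62 and 2.17 CPM in 5 libraries of hypg15. It fell by 1.01 ± 0.20 on the log2 scale (edgeR adjusted p = 8.15e-04) and was the only member called at hypg15 with a change of at least 2-fold. ZNF813 followed with 1.49, 1.96 and 2.52 CPM against 2.89, 3.79 and 5.27, a log2 fold change of −0.85 ± 0.17. Both were named as falls without overlap of the groups, and both rose at 300 g, by 2.00 and 2.10 in wait1min. At hypg15 36 of 181 members lay wholly below Ctrl and 10 wholly above. At the other end ZNF628, which has 16 fingers and no KRAB box, had 41.4, 53.2 and 56.3 CPM at hypg15 against 34.3, 36.5 and 39.4 CPM, and rose by 0.49 ± 0.07. At hypg60 ZNF628 had 21.1, 27.0 and 29.6 CPM against 32.4, 37.0 and 41.6 CPM in Ctrl60, and fell by 0.46 ± 0.09 on the log2 scale, one of 2 members with a rise at hypg15 and a fall at hypg60, the other being ZNF416. The KRAB gene ZNF439 rose by 0.45 ± 0.11 at hypg15, with 5.91, 6.67 and 8.29 CPM against 4.47, 5.00 and 5.84. With the GC correction 14 of the 65 falls and 7 of the 27 rises of members at hypg15 kept their call.

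In the shorter exposures ZNF614, a KRAB gene, had 4.29, 4.54 and 5.27 CPM in Ctrl, 2.80, 3.44 and 3.54 CPM in hypg75s and 2.76, 2.91 and 3.30 CPM in hypg3. It fell by 0.48 ± 0.09 and 0.64 ± 0.08 on the log2 scale, and lack of overlap between the groups was a condition for naming it. ZNF816, also a KRAB gene, fell by 0.46 ± 0.10 at hypg3, from 3.14, 3.52 and 4.06 CPM to 1.86, 2.58 and 3.09. With the GC correction 4 of the 38 falls and 9 of the 19 rises of members at hypg3 kept their call. ZNF579 and ZNF865, of 64.5% and 71.0% GC and without a KRAB box, rose at hypg3. ZNF579 went from 24.9, 26.0 and 28.4 CPM to 31.4, 37.7 and 42.5 CPM, a log2 fold change of 0.50 ± 0.07, and ZNF865 from 28.8, 34.2 and 36.9 CPM to 37.9, 45.4 and 49.9 CPM, one of 0.42 ± 0.07. ZNF579 had already risen by 0.44 ± 0.07 in hypg75s, at 28.9, 35.5 and 39.2 CPM. After 5 min ZNF865 was still higher, at 38.3, 43.4 and 46.6 CPM (log2 fold change 0.35 ± 0.07). In hypg20s ZNF584 rose by 0.30 ± 0.04, from 33.7, 35.8 and 38.5 CPM to 41.3, 44.0 and 46.3, and ZNF256 fell by 0.21 ± 0.05, from 11.6, 12.0 and 13.0 CPM to 10.2, 10.5 and 10.9.

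Of the 181 members, 3 were called higher and 1 lower in 7 or more of the 8 comparisons of 9 g. The share of all genes with so many calls was not counted, and all but the comparison of hypg60 share Ctrl. ZNF587B, a KRAB gene with 15 fingers at chr19:57819721-57846238, had 22.6, 25.3 and 27.3 CPM in Ctrl, and 29.1, 32.6 and 33.7 CPM after only 20 s. It reached 34.7, 36.1 and 39.7 CPM in hypg5, and in hypg60 35.3, 39.8 and 41.8 CPM against 21.4, 23.3 and 25.2 CPM in Ctrl60. It was called higher in 7 of the 8 comparisons, all but hypg15, where it had 21.4, 26.0 and 33.5 CPM and a log2 fold change of 0.15 ± 0.10 (edgeR adjusted p = 0.223). The 7 log2 fold changes ran from 0.35 ± 0.06 in hypg20s (edgeR adjusted p = 0.00249) to 0.76 ± 0.07 in hypg60 (adjusted p = 3.37e-06), the treated and control ranges did not overlap in any of the 7, and its 7 calls were kept under every alternative run.

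ZNF490 and ZNF324, both KRAB genes, were also called higher in 7 of 8. ZNF490 had 6.93, 8.07 and 8.63 CPM in Ctrl60 and 9.03, 11.0 and 13.2 CPM in hypg60, a log2 fold change of 0.55 ± 0.10, and ZNF324 had 32.7, 35.8 and 39.4 CPM against 42.9, 48.4 and 56.1 CPM, one of 0.47 ± 0.08. ZNF324 fell by 0.78 on the log2 scale in wait1min. ZNF101 was the only member called lower in 7 of 8 comparisons. It had 80.7, 85.5 and 86.9 CPM in Ctrl, 72.7, 76.3 and 79.0 CPM in hypg20s and 62.7, 66.5 and 69.5 CPM in hypg15, with log2 fold changes of −0.15 ± 0.03 and −0.30 ± 0.04 (edgeR adjusted p = 6.53e-05 for the latter). Its call at hypg60 was lost without library 12 of Ctrl60 and with total counts, with a log2 fold change of −0.19 in both. ZNF101 missed the threshold in hypg5, with a log2 fold change of −0.06 and ranges that overlapped those of Ctrl. After the GC correction its log2 fold changes in hypg20s, hypg75s, hypg3 and hypg15 stayed below 0 and lost their calls, from −0.08 to −0.13. No member was called higher in all 8 comparisons. In all, 60 members (33.1%) rose in at least 1, 78 (43.1%) fell in at least 1, 5 (2.76%) did both, and 48 (26.5%) were called in none. Over the 15638 genes tested in all 8 comparisons these shares were 36.3%, 37.6%, 1.58% and 27.7%.

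ZNF607, a KRAB gene, was called higher in hypg75s, hypg7, hypg9 and hypg60 and not at the other 4 times, with a log2 fold change of −0.01 at hypg15. It rose from 4.52, 4.79 and 5.54 CPM in Ctrl to 5.87, 7.00 and 8.03 CPM in hypg7 (log2 fold change 0.54 ± 0.09) and had 5.53, 7.66 and 10.1 CPM in hypg60 against 3.95, 4.48 and 5.47 CPM (0.79 ± 0.13). ZNF700, of the same kind, had 6.58, 7.40 and 8.84 CPM in hypg9 against 3.81, 5.46 and 6.49 CPM (0.54 ± 0.13), its only call at 9 g, with −0.02 at hypg15. ZNF428, a gene with 1 finger pattern, was among the 2 members that fell in hypg7 and among the 2 in hypg9, with 54.4, 67.7 and 72.4 CPM and 64.5, 66.2 and 73.3 CPM against 73.4, 75.5 and 82.2 CPM. The other in both was ZNF101. In hypg60 ZNF773 fell by 0.52 ± 0.08, from 7.98, 8.38 and 9.21 CPM to 5.25, 5.78 and 6.36 CPM.

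Comparisons with no library in common were set side by side gene by gene. Of the 65 members that fell at hypg15, 61 rose in wait1min, which is 93.8% of the first list and 48.8% of the 125 in the second, and 1, ZNF101, fell in both, though with total counts its log2 fold change after 300 g turned to 0.13 in wait1min and was called higher. Of the 27 that rose at hypg15, 23 fell in wait1min (85.2% of these and 59.0% of the 39). Without regard to hypg15, 125 of the 181 members rose and 39 fell in wait1min. The same overlaps were not counted over all genes tested, so they do not show an inversion particular to the members. Over all genes, the paper reports strongly inverted coherence of routine centrifugation with its shortest exposure in the pipette centrifuge, and only slight inversion with its longest. Between hypg15 and hypg60, 7 members were lower in both (10.8% and 43.8%) and 11 higher in both (40.7% and 30.6%), while 3 were lower at hypg15 and higher at hypg60 (ZNF791, ZNF175 and ZNF616) and 2 were the reverse. Of the 36 members that rose at hypg60, 18 rose and 15 fell in wait1min, and of the 16 that fell 9 rose and 4 fell. The overlaps with hypg60 were not counted without library 44. GC content moved with the change at hypg15 and in wait1min, in opposite directions, and its part in these overlaps was not tested.

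Along the chromosome the members fell into 17 clusters, split where neighbours lay more than 1 Mb apart. The 6 genes at chr19:23221599-24129968, ZNF91 among them, all rose in wait1min with a median log2 fold change of 2.08, and the 14 at chr19:19668796-21852125 had 13 risers and a median of 1.81. All 25 members at chr19:51571283-53580269 rose, with a median of 1.35, and 22 of 23 at chr19:36182276-37817300 did, with a median of 1.68. The 50 members of the last cluster, at chr19:55476617-58481230, split into 20 that rose and 24 that fell, with a median of −0.15. At hypg15 the last cluster had 19 of its 50 members called higher and 4 lower, and the cluster at chr19:51571283-53580269 had 1 higher and 17 lower. These clusters were picked after their values were seen and the difference between them was not tested. Of all 27 members called higher at hypg15, 7 were still called higher after the GC correction. The first cluster named had a median GC content of 39.6% and the last one of 48.7%.

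**Figure D5:**
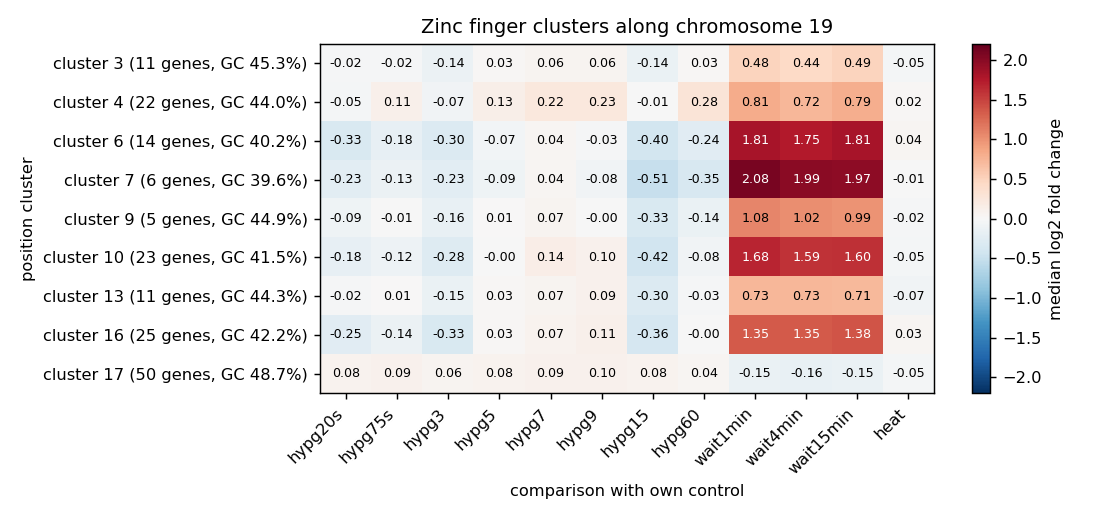
Median log2 fold change of the members of each position cluster with 5 or more genes (rows, in order along the chromosome, with gene number and median GC content) in the 12 comparisons (columns). Cluster 7 reaches 2.08 in wait1min and −0.51 in hypg15, whereas cluster 17 stays between −0.16 and 0.10 throughout.

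The count of fingers went along with the response to 300 g. In wait1min 69 of 85 members with 13 or more fingers rose and 11 fell, with a median of 1.08, and of 76 with 7 to 12 fingers 51 rose and 15 fell, with a median of 0.73. Of 16 with up to 6 fingers 2 rose and 13 fell, with a median of −0.66. Most of these short-array genes lack a KRAB box, and in the 5 that have one the median was 0.22. The sets were not tested against each other, nor compared at equal GC content.

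Members with described functions differed among themselves. ZNF224, a KRAB repressor that works with the Wilms tumour protein, rose from 3.43, 3.47, 3.91 and 4.55 CPM in Ctrl300 to 16.1, 16.2, 16.2 and 18.9 CPM in wait1min, by 2.24 ± 0.09. The imprinted gene ZNF331 rose from 15.6, 15.8, 16.7 and 17.2 CPM to 28.3, 30.4, 31.0 and 31.5 CPM, by 1.00 ± 0.06. ZNF175 rose by 0.45 ± 0.05 at 300 g, but fell by 0.48 ± 0.07 at hypg15, with 15.0, 16.4 and 17.2 CPM against 21.3, 23.4 and 25.8. ZNF146 likewise fell at hypg15, to 8.26, 12.8 and 15.9 CPM from 16.1, 20.0 and 28.9 CPM in Ctrl, by 0.75 ± 0.17.

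ZNF473, which takes part in the processing of histone pre-mRNA, fell at 300 g from 59.5, 59.6, 59.9 and 62.8 CPM to 37.7, 37.7, 40.8 and 41.1 CPM, with a log2 fold change of −0.51 ± 0.04. ZNF274, which binds zinc finger genes themselves and recruits SETDB1 to them, had 9.12, 10.4, 10.5 and 10.9 CPM in Ctrl300 and 7.31, 7.68, 8.70 and 8.72 CPM in wait1min, a log2 fold change of −0.23 ± 0.08 (edgeR adjusted p = 0.0104). Its direction turned under total counts and under the GC correction. ZNF304 fell by 0.23 ± 0.05 and turned under total counts. At hypg15 none of ZNF473, ZNF274, ZNF304, ZNF331 and ZNF224 passed the threshold, with log2 fold changes of 0.10, −0.06, −0.07, −0.09 and −0.36. ZNF93, which represses LINE-1 elements, and ZNF350 lay under the count cutoff, with mean counts of 0.8 and 11.5.

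In heat 3 members rose and 20 fell, where 10.6% of all genes tested were called higher, 10.2% lower and 20.8% in all, and the median was −0.02 for the members, 0.02 for the other chromosome 19 genes and 0.01 for all genes. ZNF526, with 13 fingers and no KRAB box, fell from 52.0, 52.0, 55.6 and 55.7 CPM to 40.3, 42.1, 42.2 and 43.0 CPM, by 0.32 ± 0.04 (edgeR adjusted p = 4.51e-05), and ZNF134 from 26.9, 27.7, 29.1 and 29.2 CPM to 20.5, 21.5, 22.4 and 23.5 CPM, also by 0.32. ZNF418 rose from 2.11, 2.59, 2.63 and 3.12 CPM to 3.37, 3.83, 3.85 and 3.86 CPM, by 0.56 ± 0.12, and ZNF888 rose by 0.45 ± 0.11. The largest log2 fold change of a called member was 0.56. With the GC correction 4 members were higher and 39 lower, among them all 23, where 9.29% and 21.9% of all genes tested were called with it. With all groups of the experiment in 1 model 4 were higher and 40 lower, where 7.85% and 21.6% of all genes were called. Of the 20 members that fell, 11 lay in the last cluster, whose size is given above and which was picked after its values were seen. Its share of the falls was not tested.

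The responses were also tested against each other. The difference between heat and wait1min passed the threshold for 161 of 181 members, 131 of them lower and 30 higher in heat (42.0% and 39.1% of all genes tested were called lower and higher, 81.1% in all). The difference between the change after 5 min at 300 g (wait1min against Ctrl300) and that after 5 min at 9 g (hypg5 against Ctrl) passed it for 148 members, 109 with a higher and 39 with a lower change at 300 g (34.7% and 37.9% of all genes, 72.6% in all). The median difference was 0.63 on the log2 scale for the members and −0.71 for the other chromosome 19 genes. Centrifuge, vessel, cell density, the wait of 1 min before fixing and the experiment differ between these arms and cannot be told apart from the acceleration. Between the controls Ctrl60 and Ctrl edgeR called 0 members, with 12 at an unadjusted p under 0.05, 0 called by DESeq2. Of all genes tested 0.0124% were called there, 0.00621% higher and 0.00621% lower.

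The partners of the KRAB box were read from a list of 27 genes for the silencing pathway. All 27 were called in wait1min, 13 higher and 14 lower, where 81.5% of all genes tested were called, 41.4% higher and 40.1% lower. TRIM28, the direct partner of the KRAB box, had 766 ± 31 CPM (SD, n = 4) in Ctrl300 and 380 ± 11 CPM (SD, n = 4) in wait1min, and fell by 0.90 ± 0.04 (SE) on the log2 scale. SETDB1, the methyltransferase of the complex, fell by 0.43 ± 0.04, whereas its cofactor ATF7IP rose by 1.69 ± 0.05. The HP1 gene CBX3 rose from 74.0 ± 8.3 to 256 ± 17 CPM, the HUSH subunits TASOR and MPHOSPH8 rose by 1.98 ± 0.05 and 1.49 ± 0.07, and the remodeller ATRX rose most, from 16.3 ± 1.8 to 143 ± 7.2 CPM, by 3.23 ± 0.06. The 13 that rose had a transcript GC content of 37.1 to 48.4%, and the 14 that fell one of 49.1 to 60.9%. After the GC correction 9 of the 13 and 11 of the 14 were still called in their direction, with log2 fold changes of −0.41 for TRIM28, 0.59 for CBX3 and 1.49 for ATRX. With it 4 genes turned sign and were called the other way, CBX5 (from 0.90 to −0.19), HDAC2 (from 1.00 to −0.44), SUMO2 (from 0.26 to −0.24) and EHMT1 (from −0.21 to 0.17).

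At hypg15 5 genes of the list were called higher and 15 lower, where 53.4% of all genes tested were called, 25.4% higher and 27.9% lower. TRIM28 rose from 905 ± 54 to 1031 ± 57 CPM, by 0.24 ± 0.05, and SETDB1 by 0.16 ± 0.05, while MPHOSPH8 fell by 0.89 ± 0.12, ATF7IP by 0.77 ± 0.14 and CBX3 by 0.70 ± 0.11. After the GC correction SETDB1 was still called higher, with a log2 fold change of 0.14, and the other 4 of the 5 turned sign without a call, TRIM28 to −0.016. Of the 15 that fell 9 were still called lower, with −0.61 for MPHOSPH8, −0.34 for ATF7IP and −0.22 for CBX3. At hypg3 4 genes of the list rose and 13 fell (41.3% of all genes were called), and at hypg75s 2 rose and 9 fell (31.3%). At hypg20s 1 rose and 5 fell (15.2%), at hypg7 0 and 3 (12.8%), and at hypg9 1 and 5 (19.6%). At hypg60 1 gene of the list rose and 8 fell (30.1% of all genes were called), at hypg5 0 rose and 1 fell (6.02%), and in heat 0 rose and 5 fell (20.8%).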

How the data were processed

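Total RNA of Jurkat cells was depleted of rRNA and sequenced in 80 stranded libraries. Per the labels, the authors used Trim Galore 0.6.5, STAR 2.7.3a, featureCounts 2.0.1 and DESeq2 1.28.1 on hg38. The deposited table holds raw counts of read pairs per gene, and its header names featureCounts 2.0.3 with strand and the Ensembl 104 annotation. A record broken over 3 lines was not used.

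From the counts, TMM scaling, a filter on low counts (filterByExpr, minimum 10) and the quasi-likelihood test of edgeR 4.0.16 were run on the 2 groups of each comparison over all genes, with Benjamini-Hochberg adjustment and a threshold of 0.05. DESeq2 1.42.0 was an alternative. CPM values were TMM-scaled over 79 libraries. GC content (pooled over a gene's transcripts), KRAB boxes and fingers (by sequence pattern in translated coding transcripts, not from curated domains) came from GENCODE 29, since no protein table was used here. The fits were tested on simulated counts with 200 changed genes.

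The members and lists were chosen with earlier results of these data known. Named members are those called in 1 direction in at least 7 of 8 comparisons at 9 g, the 2 largest rises and falls without overlap of CPM ranges in each of 12 comparisons, the 5 highest levels per kb in Ctrl, genes with described roles and those next to the cutoff.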

Additional observations from a re-analysis of the deposited data

Results flagged for a closer look

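Library 75 of hypg15, which was left out, put 0.355% of its counts on the members, above the 0.219 to 0.261% of the Ctrl libraries. The response to 300 g and that to 9 g for 5 min differed, by the test of the difference, for 148 members (81.8%, against 72.6% of all genes tested), and heat differed from wait1min for 161 (89.0%, against 81.1%).

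Single libraries stood apart from the rest of their group by Dixon's criterion, which chance alone meets in about 1 in 20 groups. It was met in 12 of 172 groups of values tested. The per-library median change of the members was 0.64 in library 56 of wait1min, where the other 3 libraries had 0.57, and 0.15 in library 9 of Ctrl60, where the others had −0.08 to 0.00. Among named genes, ZNF101 had 57.8 CPM in library 73 of hypg3 against 69.4 to 75.3 CPM in the others, ZNF428 had 54.4 CPM in library 33 of hypg7 against 66.6 to 72.4, and ZNF628 had 21.1 CPM in library 44 of hypg60 against 26.6 to 29.6. In wait4min ZNF91 had 42.7 CPM in library 59 against 39.6 to 40.0 CPM, and ZNF837 had 8.27 CPM in library 58 against 6.49 to 6.76. ZNF418 had 3.37 CPM in library 67 of heat against 3.83 to 3.86. In library 49 of Ctrl300, ZNF473 had 62.8 CPM against 59.5 to 59.9 and ZNF146 had 22.4 CPM against 17.3 to 17.8. In wait1min ZNF224 had 18.9 CPM in library 53 against 16.1 to 16.2, and ZNF146 had 121 CPM in library 54 against 102 to 105.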

How the results depend on the processing

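No paired analysis was possible because each library has a number of its own and no groups share one. Each comparison was refitted without the filter on low counts, with RLE size factors, with total counts only, with DESeq2, with all groups of an experiment in 1 model and with a GC correction, and the groups of 4 and hypg15 without each library in turn. The same was done for hypg60 and Ctrl60, a choice made after seeing the data. With the GC correction the number of members called went to 31 in hypg3, 21 in hypg5, 36 in hypg7, 54 in hypg9, 48 in hypg15, 83 in hypg60 and 43 in heat. With it the balance turned from 19 higher and 38 lower to 25 and 6 in hypg3, from 27 and 65 to 30 and 18 in hypg15, and from 9 and 10 to 14 and 5 in hypg20s, and became 92 and 59 in wait4min and 90 and 58 in wait15min. Without the filter it was 4 in hypg5, 11 in hypg7 and 1 between wait15min and wait1min, with total counts 11 in hypg5, with DESeq2 36 in hypg20s, and with 1 model 14 in hypg5 and 44 in heat. With library 75 kept, 22 members were higher and 55 lower in hypg15. The cause of these changes was not tested.

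The median of the members minus that of the other chromosome 19 genes became, with the GC correction, 0.024 in hypg20s, 0.12 in hypg75s, 0.079 in hypg3, 0.075 in hypg15, 0.46 in wait1min, 0.46 in wait4min and 0.42 in wait15min, and 1.39 in wait4min with a count cutoff of 50. Leaving out 1 library at a time, it ran from 1.41 to 1.47 in wait1min, 1.34 to 1.40 in wait4min, 1.34 to 1.40 in wait15min, −0.39 to −0.30 in hypg15, −0.15 to 0.056 in hypg60 and −0.07 to −0.01 in heat. The number called then ran from 159 to 164 in wait1min, 158 to 163 in wait4min, 160 to 163 in wait15min, 78 to 91 in hypg15, 38 to 71 in hypg60, 19 to 26 in heat, 157 to 162 between heat and wait1min and 144 to 147 for the difference between 300 g and 9 g, with 0 throughout between wait15min and wait1min.

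Of 216 calls of named members, the GC correction ended 31 and turned 17, total counts ended 11 and turned 12, and no filter ended 22, 1 model 13, RLE 4 and DESeq2 2. Leaving out a library ended 52 of 1243 refitted calls and turned none. Log2 fold changes that turned with total counts at 1, 4 and 15 min after 300 g were those of ZNF490 (0.0056, 0.030 and 0.0025), ZNF101 (0.13, 0.18 and 0.16), ZNF274 (0.0098, 0.035 and 0.080) and ZNF304 (0.012, 0.059 and 0.040). With the GC correction those that turned at these times were of ZNF587B (−0.069, −0.050 and −0.047), ZNF274 (0.028, 0.024 and 0.065) and ZNF709 (−0.55 and −0.52 at 1 and 15 min). With it those of ZNF581 (−0.032 and −0.071), ZNF787 (−0.084 and −0.074) and ZNF574 (−0.0068 and −0.070) turned in hypg3 and hypg15, those of ZNF584 (−0.037) and ZNF837 (−0.19) in hypg15, and that of ZNF787 (−0.066) in hypg75s. No other named call turned under the alternatives run.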
